A study of Mus musculus with 16 samples.

Results

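The 8 genes described here encode the drug efflux pumps of the ATP-binding cassette (ABC) family in the mouse: Abcb1a and Abcb1b for P-glycoprotein, Abcc1 to Abcc5 for the multidrug resistance-associated proteins Mrp1 to Mrp5, and Abcg2 for the breast cancer resistance protein. They were chosen by symbol, as a gene family, and all 8 were found among the 40840 genes of the count table. Of the 20444 genes with at least 10 counts over all libraries, which were the genes tested, 7 were members, and Abcc2 was the member below that minimum. Abcc4 carried the largest response to sorafenib among the well-expressed members. Its level was 3.10 times that of DMSO after 48 hours and 3.54 times after 7 days. Without 1 sorafenib library with lowered counts, the value at 48 hours was 3.40. Abcc5 rose at both times, and Abcg2 rose at 48 hours and fell at 7 days.

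ABC pumps couple the hydrolysis of ATP to the export of a substrate across a membrane. P-glycoprotein takes hydrophobic drugs out of the membrane, the Mrp proteins export organic anions that are often coupled to glutathione, glucuronate or sulfate, and Abcg2 works as a pair of half-molecules on drugs, porphyrins, urate and sulfate conjugates. In the liver these pumps are divided between the canalicular face of the hepatocyte, which drains into bile (P-glycoprotein, Mrp2, Abcg2), and the face toward the blood (Mrp3, Mrp4), and in liver tumours they are studied for their part in drug resistance.

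RNA was sequenced from p53-/-; Myc hepatoblasts, an immortal mouse liver progenitor line that lacks p53, overexpresses Myc and forms tumours in mice. The cells received sorafenib, an oral inhibitor of several kinases used in advanced liver cancer, at 8.5 µM, or its solvent DMSO. Treatment lasted 48 hours or 7 days, which gave 4 groups of 4 libraries each, 16 in all, from poly(A)-selected RNA. All groups shared the genotype and the line, so every value below describes 1 line. The labels number the replicates without saying whether they were separate cultures, so p-values measure the spread between these libraries, which may be technical.

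Windows before annotated starts of the P-glycoprotein pair, of Abcc4 and of Abcg2 are printed here. These 4 genes sit in the same cells at very different levels or answer the drug in different ways. Each run is the 250 bases before an annotated transcript start, 5′ to 3′ on the gene's strand, from RefSeq on build GRCm38.p6, an older build than the GRCm39 of the count table, so these coordinates hold for GRCm38.p6 only. Of the 8 members, 6 had at least 1 such window, and Abcc1 and Abcc3 had none. Capitals mark a match, on either strand, to 1 of 7 letter patterns searched: CCAAT box (CCAAT), GC box (GGGCGG), E-box (CACGTG), cAMP response element (TGACGTCA), antioxidant response element core (TGACNNNGC), AP-1 site (TGANTCA) and TATA box (TATAAA).
Abcb1a, chr5:8566841-8567090, plus strand: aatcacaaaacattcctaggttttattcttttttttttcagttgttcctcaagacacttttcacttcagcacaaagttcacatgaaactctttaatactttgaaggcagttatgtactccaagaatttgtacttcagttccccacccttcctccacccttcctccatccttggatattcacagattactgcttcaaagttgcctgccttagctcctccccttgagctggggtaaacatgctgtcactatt
Abcb1b, chr5:8797897-8798146, plus strand: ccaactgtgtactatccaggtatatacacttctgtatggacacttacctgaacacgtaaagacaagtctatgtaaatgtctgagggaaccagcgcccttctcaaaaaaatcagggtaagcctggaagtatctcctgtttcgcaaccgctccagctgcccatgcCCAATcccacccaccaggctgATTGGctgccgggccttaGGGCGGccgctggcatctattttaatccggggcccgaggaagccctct
Abcc4, window 1 of 2, chr14:118706220-118706469, minus strand: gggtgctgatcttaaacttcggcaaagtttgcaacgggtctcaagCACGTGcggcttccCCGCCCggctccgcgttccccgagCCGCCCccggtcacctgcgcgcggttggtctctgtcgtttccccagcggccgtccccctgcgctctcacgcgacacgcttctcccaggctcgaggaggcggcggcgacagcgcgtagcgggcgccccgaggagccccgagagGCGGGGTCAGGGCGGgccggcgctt
Abcg2, window 3 of 3, chr6:58640296-58640545, plus strand: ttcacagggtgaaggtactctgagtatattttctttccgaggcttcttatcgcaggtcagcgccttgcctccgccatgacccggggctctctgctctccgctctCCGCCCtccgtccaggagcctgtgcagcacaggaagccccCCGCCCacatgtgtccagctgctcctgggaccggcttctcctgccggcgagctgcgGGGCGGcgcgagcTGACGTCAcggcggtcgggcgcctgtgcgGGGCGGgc

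The 2 P-glycoprotein windows were unlike each other. That of Abcb1a was 40.4% G and C, held 0 CpG pairs and matched none of the patterns. That of Abcb1b was 52.8% G and C with 9 CpG pairs, a CCAAT box on each strand and 1 GC box. The Abcb1a window ends at 8567090 on GRCm38.p6, and its gene starts at 8710022 on GRCm39. For the neighbour Abcb1b these positions, 8798146 and 8847994, are much closer. The Abcb1a window thus belongs to a distant annotated start, and whether these cells use that start was not tested. The printed Abcc4 window was 72.0% G and C with 35 CpG pairs and held 3 GC boxes, 1 E-box and, on the minus strand directly beside the last GC box, 1 antioxidant response element core. The printed Abcg2 window, at 67.6% G and C with 23 CpG pairs, held 4 GC boxes and 1 cAMP response element. The windows not printed held fewer matches. Abcc4 window 2 was 47.6% G and C with 4 CpG pairs, and its only match was an antioxidant core. Abcg2 window 1 (51.2%, 3 CpG pairs) had no match, and window 2 (50%, 10 CpG pairs) matched the GC box only. Which start these cells use was not tested for Abcc4 or Abcg2 either. Of the 32851 windows of this length for all genes, 33.8% held a CCAAT box, 32.7% a GC box, 6.02% the E-box, 1.55% the cAMP response element, 10.2% the antioxidant core, 6.75% the AP-1 pattern and 12.4% the TATA box. A match describes letters in a window and is not evidence of a bound factor, and no binding was measured in these cells.

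The members lie on 6 chromosomes of GRCm39. Abcb1a (chr5:8710022-8798575, plus strand) and Abcb1b (chr5:8847994-8916389, plus strand) are neighbours, Abcg2 lies at chr6:58561505-58672661 (plus), Abcc3 at chr11:94233874-94283823 (minus) and Abcc4 at chr14:118720103-118943924 (minus). Abcc1 (chr16:14179311-14293601, plus) and Abcc5 (chr16:20150053-20245192, minus) share a chromosome, and Abcc2 lies at chr19:43770631-43829179 (plus). The table gives 1 count per gene and library, with no split by exon or transcript. Exons of 7 members overlapped an antisense gene over 0.557% (Abcg2) to 10.4% (Abcc3) of their length, and reads there cannot be told apart because the strand setting of the counting was not given in the sources used here.

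The libraries held between 16586254 and 30828427 counts in genes. One of them stood apart by a step along the genome. In sorafenib for 48 hours replicate 2, the library with the fewest counts, genes after a point on chromosome 14 lay at a median of 0.644 times the level of the group's other replicates, whereas genes before it lay at 1.06 times. In genome order that stretch took 14.7% of the counts in this library and 21.9% to 22.2% in each of the other 15. It holds Abcc4, Abcc1, Abcc5 and Abcc2. The ratio of replicate 2 to the mean of replicates 1, 3 and 4 was 0.615 for Abcc1, 0.645 for Abcc4 and 0.619 for Abcc5, close to the median of that stretch. Outside it, the same ratio was 1.19 for Abcb1b and 1.11 for Abcg2. Results of the members at 48 hours are therefore given with and without this library, as are the counts over gene lists that change without it.

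**Figure D1:**
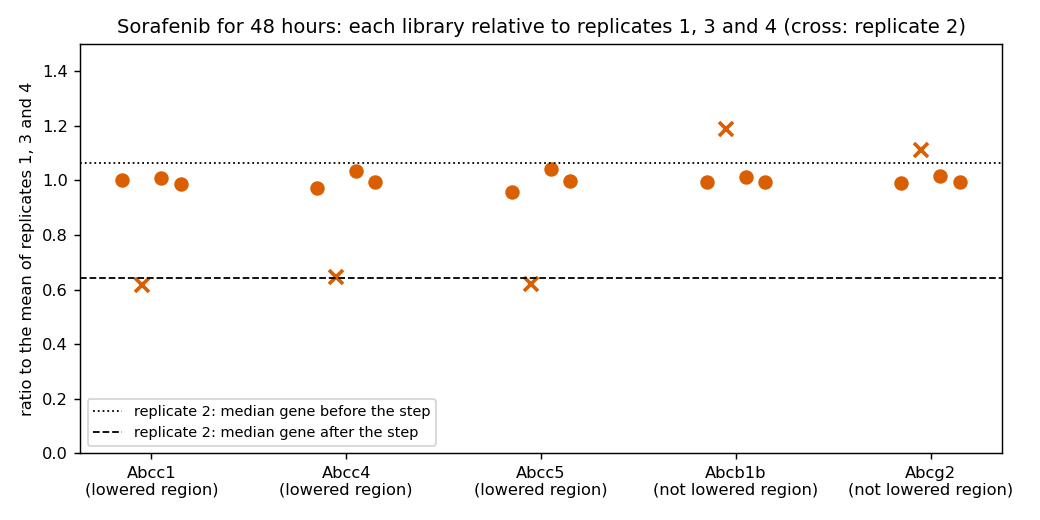
Normalized count of each sorafenib 48-hour library divided by the mean of replicates 1, 3 and 4, for the 5 members above 100 normalized counts. Circles are replicates 1, 3 and 4, the cross is replicate 2, and the lines are the median ratio of replicate 2 before (1.06) and after (0.644) the point on chromosome 14. The cross lies near the lower line for Abcc1, Abcc4 and Abcc5 and above 1 for Abcb1b and Abcg2.

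The label of the line was checked against marker genes, as normalized counts averaged over the 16 libraries. Of 12 hepatoblast markers 5 lay above 100, with Dlk1 at 15866, Krt19 at 1659, Foxa2 at 569 and Sox9 at 533, but Hnf4a was at 0 and Afp at 3.69. Hepatocyte markers were near absent, with Alb at 0.166. Of the leukocyte markers, Adgre1, Clec4f and Cd3e were at 0 and Ptprc at 0.302, while Cd68 was at 67.8 and Csf1r at 25.9. Of the endothelial markers, Cdh5 was at 0.161 and Kdr at 99.6, and Kdr rose with sorafenib, from a group mean of 48.5 to 122 at 48 hours and from 31.3 to 197 at 7 days. Of 8 stellate and fibroblast markers 6 lay above 100, led by Col1a1 at 54365 and Acta2 at 39477, and Lrat was at 0. Members of both the hepatoblast and the fibroblast lists moved with treatment, in both directions, and their part in the results below was not tested. Of 10 hepatoblast markers tested, 2 were higher and 5 lower in sorafenib at 48 hours and 3 higher and 6 lower at 7 days, with Foxa2 and Sox9 higher at both times. Of 7 fibroblast markers tested, 4 were higher and 2 lower at 48 hours and 3 higher and 4 lower at 7 days. Both lists stand beside 54.6% of all genes called at 48 hours and 56.8% at 7 days. The sums that follow are set mainly by Dlk1 in the hepatoblast list and by Col1a1 and Acta2 in the fibroblast list. The summed hepatoblast level ran from 35004 to 36371 in DMSO and from 12892 to 14810 in sorafenib at 48 hours, and from 18793 to 20608 and from 6902 to 7170 at 7 days. The summed fibroblast level ran from 50425 to 53423 in DMSO and from 137073 to 157811 in sorafenib at 48 hours, and from 71674 to 73713 and from 115549 to 120753 at 7 days. In bulk RNA, fewer cells that express a gene and less RNA per cell cannot be told apart.

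The 8 members fell into 2 sets by level. Abcc1, Abcc4, Abcc5, Abcg2 and Abcb1b were above 100 normalized counts on average over the 16 libraries, and Abcb1a, Abcc3 and Abcc2 had at most 15 counts in any library. To compare genes, normalized counts (counts scaled to a common library size) were divided by length in kilobases. Per kilobase of all annotated exons, the order in DMSO at 48 hours was Abcc5 (191 ± 2.91, SD, n = 4), Abcc1 (187 ± 5.75), Abcg2 (135 ± 8.77), Abcc4 (111 ± 4.05) and Abcb1b (21.4 ± 1.24). The libraries of Abcc5 and Abcc1 overlapped, from 188 to 194 and from 178 to 191, while the other neighbours did not. In DMSO at 7 days, Abcg2 (224 ± 11.4) and Abcc5 (220 ± 4.58) overlapped at the top, followed by Abcc1 (193 ± 5.79), Abcc4 (138 ± 5.41) and Abcb1b (25.7 ± 1.49). In sorafenib at 7 days the order was Abcc4 (490 ± 13.2), Abcc5 (339 ± 7.33), Abcc1 (259 ± 5.51), Abcg2 (145 ± 3.37) and Abcb1b (29.2 ± 1.89), with no overlap between neighbours.

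This order depended in part on the length used. Annotated exons add up to 21186 bases for Abcb1b against 4572 in its canonical transcript, which changes its level per kilobase but not its place. Per kilobase of canonical transcript, Abcb1b reached 99.0 in DMSO at 48 hours, against 160 for Abcc4, and remained the lowest of the 5, while Abcc1 (421) passed Abcc5 (382). Per kilobase of coding sequence Abcg2 led in DMSO at 48 hours, at 632 against 588 for Abcc1, since its coding length is short. Abcc4 was above only Abcb1b among these 5 in DMSO at 48 hours and above all of them in sorafenib at 7 days by each of the 3 lengths. Of the summed level of all 8 members per kilobase of exon, Abcc4 made up 17.2% ± 0.379 (SD, n = 4) in DMSO at 48 hours and 17.2% ± 0.298 at 7 days. In sorafenib it made up 34.8% ± 0.211 at 48 hours (n = 3, without replicate 2) and 38.8% ± 0.579 (n = 4) at 7 days. The share of Abcg2 at 48 hours was 20.8% ± 0.900 in DMSO and 14.8% ± 0.191 in sorafenib (n = 3, without replicate 2). Its level rose there, from 135 to 160 per kilobase of exon without replicate 2, so the lower share came with a larger sum. At 7 days the share was 27.9% ± 0.663 in DMSO and 11.5% ± 0.279 in sorafenib.

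**Figure D2:**
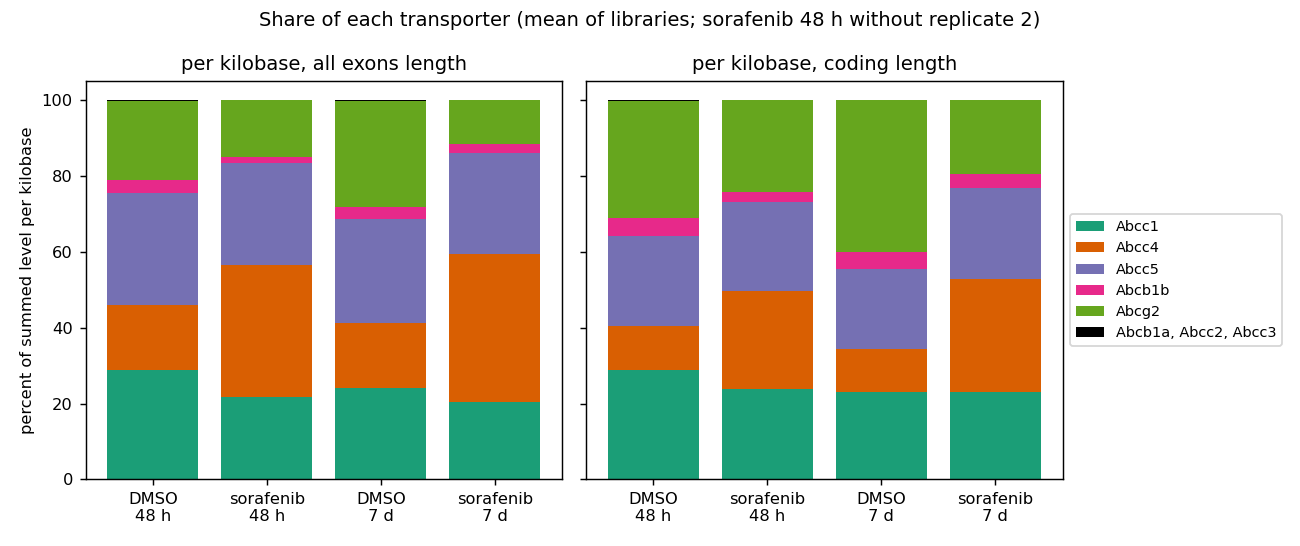
Percent of the summed level of the 8 members taken by each of them, as the mean of the libraries of each group, with lengths from all exons on the left and from coding sequence on the right. Sorafenib at 48 hours is drawn without replicate 2. The Abcc4 segment is wider in both sorafenib groups than in both DMSO groups under either length.

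The main question of the design was how the cells answered sorafenib at each time. Changes were tested with edgeR's quasi-likelihood test on the counts of all 16 libraries and called at a Benjamini-Hochberg adjusted p under 0.05 over all genes tested. At 48 hours 3 of the 7 tested members were higher in sorafenib (Abcc4, Abcc5 and Abcg2) and 1 was lower (Abcb1a), in a comparison that called 54.6% of all genes tested. Without sorafenib replicate 2, Abcc1 was called higher and Abcb1b lower as well, which made 4 higher and 2 lower against 57.0% of all genes. At 7 days 4 were higher (Abcc4, Abcc5, Abcc1 and Abcb1b) and 1 lower (Abcg2), with 56.8% of all genes called. The median log2 fold change over the 7 members was 0.19 at 48 hours and 0.19 at 7 days, against -0.05 and 0.02 over all genes tested. With such shares of all genes called, the number of members called does not set them apart, and the sizes below carry the description.

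**Figure D3:**
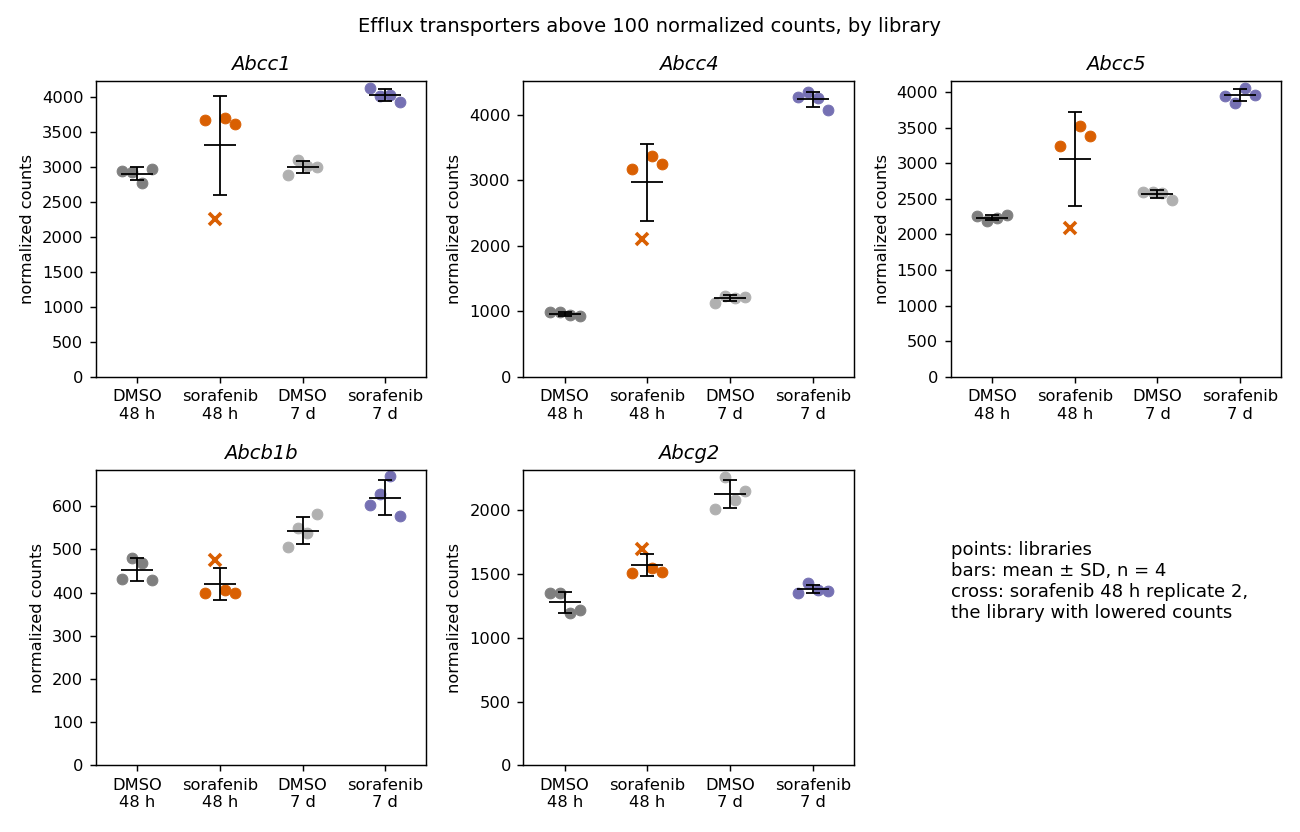
Normalized counts of the 5 members above 100 normalized counts in each of the 16 libraries, by group, with the mean and SD (n = 4). The cross is sorafenib 48 hours replicate 2. Abcc4 separates by treatment at both times, Abcg2 is highest in DMSO at 7 days, and the cross falls below the other sorafenib libraries for Abcc1, Abcc4 and Abcc5.

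Abcc4 encodes Mrp4, a pump at the blood side of the hepatocyte for cyclic nucleotides, nucleotide analogues, prostaglandins and bile acids. In DMSO at 48 hours its 4 libraries held 985, 993, 938 and 922 normalized counts, and in sorafenib they held 3163, 2100, 3364 and 3242. The lowered library was the lowest of the sorafenib libraries and still lay above every DMSO library. At 7 days the values were 1129, 1237, 1201 and 1214 in DMSO and 4275, 4341, 4246 and 4075 in sorafenib. The groups did not overlap at either time. The log2 fold change was 1.63 ± 0.097 (SE) at 48 hours (edgeR adjusted p = 1.26e-11), or 1.76 ± 0.035 without replicate 2, and 1.82 ± 0.095 at 7 days (edgeR adjusted p = 1.49e-12). In the fit without that replicate, the 7-day value was 1.82 ± 0.031. An exact two-sided permutation test of the log2 levels gave p = 0.0286 at each time, the smallest that 4 libraries against 4 can give. The change from 48 hours to 7 days in the response was 0.19 ± 0.13 on the log2 scale (95% interval -0.09 to 0.47), and 0.06 ± 0.048 without replicate 2. It did not pass the test in either fit.

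Abcc5 encodes Mrp5, a pump related to Mrp4 that also carries cyclic nucleotides and nucleotide analogues. Its libraries held 2254, 2194, 2233 and 2274 normalized counts in DMSO at 48 hours and 3244, 2096, 3531 and 3382 in sorafenib. Replicates 1, 3 and 4 of sorafenib lay above all DMSO libraries, and the lowered replicate 2 lay below them. At 7 days the values were 2596, 2602, 2583 and 2488 in DMSO and 3954, 3850, 4060 and 3965 in sorafenib, with no overlap. The log2 fold change was 0.46 ± 0.098 (SE) at 48 hours (edgeR adjusted p = 0.000497), 0.60 ± 0.030 without replicate 2, and 0.62 ± 0.097 at 7 days (edgeR adjusted p = 1.33e-05). In the fit without that replicate, the 7-day value was 0.62 ± 0.027. The response at 7 days exceeded that at 48 hours by 0.17 (95% interval -0.12 to 0.46), or by 0.02 without replicate 2, which did not pass the test.

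Abcc1 encodes Mrp1, which exports glutathione conjugates such as leukotriene C4, and glutathione itself. It was among the highest members in DMSO, with 2939, 2931, 2773 and 2973 normalized counts at 48 hours, and sorafenib gave 3675, 2255, 3701 and 3615. At 48 hours Abcc1 was not called with the lowered library as counted and was called without it. The log2 fold change was 0.19 ± 0.099 (SE, edgeR adjusted p = 0.109) with it and 0.34 ± 0.030 without it (edgeR adjusted p = 3.82e-14). At 7 days, where no library was lowered, DMSO gave 2883, 3102, 3011 and 2999 and sorafenib 4136, 4019, 4028 and 3927. All sorafenib libraries were higher there, with a log2 fold change of 0.43 ± 0.098 (edgeR adjusted p = 0.000904). Its 95% interval there was 0.22 to 0.63, below the 1.62 to 2.02 of Abcc4. The lowered library also entered these 7-day intervals, through the shared estimate of spread. Without it the 7-day value of Abcc1 was 0.42 ± 0.027 (95% interval 0.37 to 0.48), and the interval of Abcc4 was 1.76 to 1.89.

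**Figure D4:**
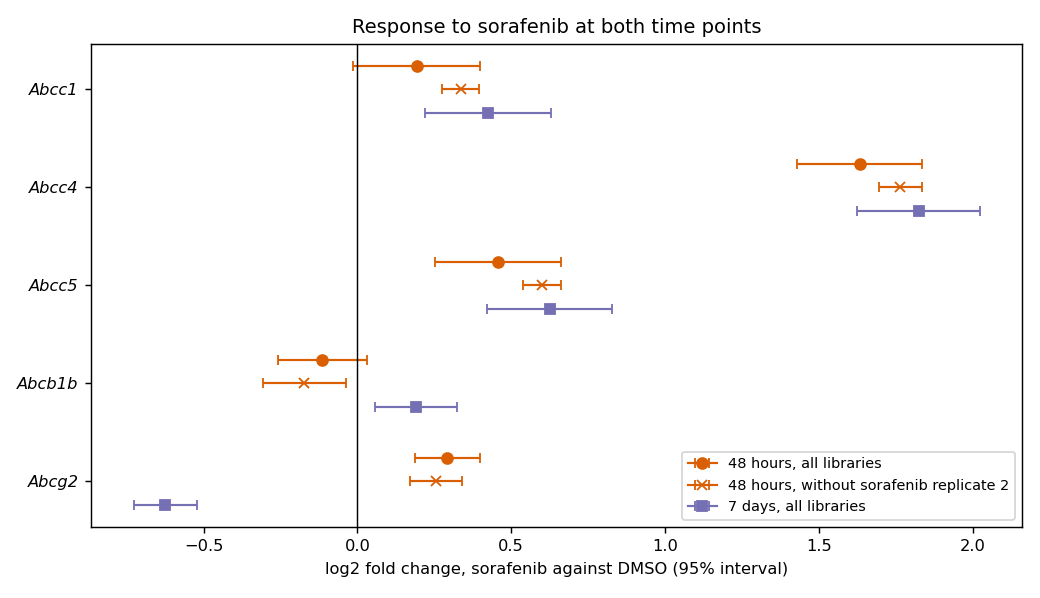
Log2 fold change of sorafenib against DMSO with its 95% interval for the 5 members above 100 normalized counts. Circles are 48 hours with all libraries, crosses 48 hours without sorafenib replicate 2, and squares 7 days with all libraries. The lowered replicate thus also entered the 7-day intervals, through the shared estimate of spread. Abcc4 lies near 1.63 to 1.82 in all 3 fits, and Abcg2 is above 0 at 48 hours and at -0.62 at 7 days.

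Abcg2 encodes a half-transporter that must pair to work and that pumps drugs, porphyrins and urate. Its normalized counts at 48 hours were 1352, 1352, 1196 and 1221 in DMSO and 1513, 1698, 1549 and 1517 in sorafenib, so every sorafenib library was above every DMSO library. At 7 days they were 2011, 2265, 2081 and 2155 in DMSO and 1353, 1427, 1373 and 1369 in sorafenib, with the order of the groups turned round. The log2 fold change was 0.29 ± 0.051 (SE) at 48 hours (edgeR adjusted p = 5.17e-05), or 0.25 ± 0.042 without replicate 2, and -0.62 ± 0.049 at 7 days (edgeR adjusted p = 1.03e-09). The difference between these responses was -0.92 ± 0.071 (-0.88 without replicate 2) and passed the test (edgeR adjusted p = 2.88e-09). Over time the DMSO cells went from a mean of 1280 ± 83.5 (SD, n = 4) to 2128 ± 108, a log2 change of 0.73 ± 0.050 (SE), while sorafenib cells went from 1569 ± 87.4 to 1381 ± 32.1, a log2 change of -0.18 ± 0.051. The reversal at 7 days was thus set against a DMSO group that had itself risen.

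Abcb1b and Abcb1a encode the 2 mouse forms of P-glycoprotein, of which Abcb1a is the form known from the blood-brain barrier and gut, and Abcb1b the one known from the adrenal and from regenerating or transformed liver. Nearly all counts of the pair fell on Abcb1b. Abcb1a made up 31 of 1983 counts in DMSO at 48 hours (1.56%, 95% exact binomial interval 1.06% to 2.21%), 1 of 1378 in sorafenib at 48 hours (0.0726%, 0.00184% to 0.404%), 18 of 2377 in DMSO at 7 days (0.757%, 0.449% to 1.19%) and 11 of 2674 in sorafenib at 7 days (0.411%, 0.206% to 0.735%). These intervals sum over libraries and cover counting error only.

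Part of the pair cannot be separated by short reads. Their coding sequences, 3828 bases each in the canonical transcripts, were identical at 88.2% of 3816 aligned bases, and the longest identical run was 338 bases (coding bases 1357 to 1694 of Abcb1a and 1366 to 1703 of Abcb1b). The first 150 bases of that run, taken from GENCODE vM39 transcripts on GRCm39, are printed because a read from them belongs to either gene.
Abcb1a and Abcb1b, shared coding run: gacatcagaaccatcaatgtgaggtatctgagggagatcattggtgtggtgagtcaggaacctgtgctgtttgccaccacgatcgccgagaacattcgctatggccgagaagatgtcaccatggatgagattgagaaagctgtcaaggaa
Of all 50-base windows of Abcb1a transcripts, 14.7% also occurred in Abcb1b, and 3.72% the other way. How reads in such windows were counted was not given in the sources used here, so the counts of Abcb1a, the scarcer gene, are the less certain of the pair.

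Abcb1b held 431, 481, 470 and 429 normalized counts in DMSO at 48 hours and 398, 476, 406 and 399 in sorafenib, where only the lowered library, replicate 2, reached the DMSO range. The log2 fold change was -0.11 ± 0.069 (SE, edgeR adjusted p = 0.177), and -0.17 ± 0.067 without that library (edgeR adjusted p = 0.0237). The exact two-sided permutation p without that library was 0.0571. With all libraries and an offset for the lowered stretch, the value was -0.12 (edgeR adjusted p = 0.133). Of 24 settings tried, 2 called this change. At 7 days the values were 505, 549, 539 and 582 in DMSO and 602, 629, 671 and 577 in sorafenib. The groups overlapped in 1 sorafenib library, and the log2 fold change was 0.19 ± 0.063 (edgeR adjusted p = 0.0155). That call was lost without DMSO replicate 1 (edgeR adjusted p = 0.0563) and without sorafenib replicate 3 (0.0694). The exact permutation p was 0.0571, two-sided. The difference between the responses at 7 days and 48 hours was 0.30 ± 0.094 (edgeR adjusted p = 0.0148), or 0.36 without sorafenib 48-hour replicate 2.

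Abcb1a had 5, 10, 10 and 6 counts in DMSO at 48 hours and 1, 0, 0 and 0 in sorafenib. The groups did not overlap. Scaled to library size, the ratio of sorafenib to DMSO was 0.0421, with a 95% counting interval of 0.00103 to 0.253 (1 against 31 counts). The change passed the test (edgeR adjusted p = 0.00065), also without replicate 2 (0.000505). At 7 days the counts were 8, 5, 4 and 1 in DMSO and 1, 6, 3 and 1 in sorafenib, a ratio of 0.618 (0.264 to 1.38), which did not pass (edgeR adjusted p = 0.366). The difference between the responses passed with all libraries (edgeR adjusted p = 0.0326) and without sorafenib 48-hour replicate 2 (0.0377). It was lost when any 1 of 6 libraries was left out, namely DMSO at 48 hours replicates 2 and 3, sorafenib at 48 hours replicates 3 and 4, and sorafenib at 7 days replicates 2 and 3, with adjusted p-values from 0.0506 to 0.112.

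**Figure D5:**
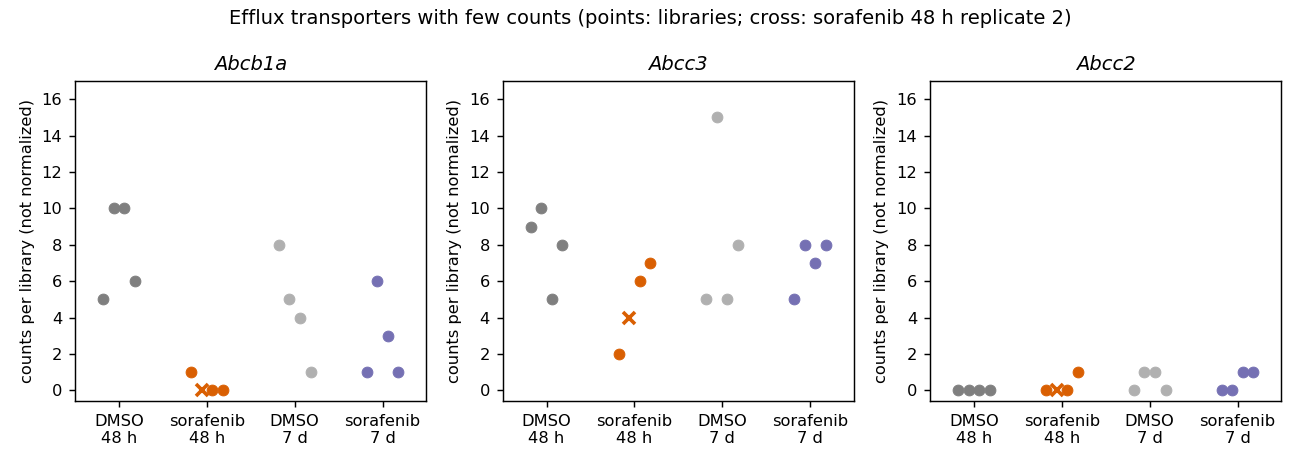
Counts, not normalized, of Abcb1a, Abcc3 and Abcc2 in each library, by group, with sorafenib 48 hours replicate 2 as a cross. Abcb1a lies at 0 or 1 in the sorafenib 48-hour libraries and at 5 to 10 in those of DMSO, Abcc3 ranges from 2 to 15 with overlap between groups, and Abcc2 lies at 0 or 1 in all libraries.

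Abcc3 encodes Mrp3, the pump for glucuronides at the blood side of the hepatocyte, and Abcc2 encodes Mrp2, the canalicular pump for conjugated bilirubin. Abcc3 had 9, 10, 5 and 8 counts in DMSO and 2, 4, 6 and 7 in sorafenib at 48 hours, and 5, 15, 5 and 8 against 5, 8, 7 and 8 at 7 days. The groups overlapped at both times, and the ratio of sorafenib to DMSO was 0.775 (95% counting interval 0.415 to 1.41) at 48 hours and 0.858 (0.50 to 1.46) at 7 days. Neither difference passed the test, with edgeR adjusted p-values of 0.471 (0.527 without replicate 2) and 0.652. At this depth the first interval reaches down to 0.415 times. Abcc2 had 5 counts over all 16 libraries, with 0 in each DMSO library at 48 hours, and was not tested. A count of 0 allows up to 3 counts, which is 2.59 to 3.06 normalized counts in those 4 libraries.

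Some members differed between the times in DMSO, a comparison in which culture time and any difference in plating or harvest between the times cannot be told apart. From 48 hours to 7 days in DMSO 3 of 7 were higher and 0 lower (Abcb1b by 0.27 ± 0.065, Abcc4 by 0.32 ± 0.098 and Abcg2 by 0.73 ± 0.050 on the log2 scale, SE), with 49.4% of all genes called. Abcc5 rose by 0.20 ± 0.098 in this fit without passing (edgeR adjusted p = 0.105), although its 4 libraries at 7 days lay above all 4 at 48 hours. It passed in the fit without the lowered sorafenib library (0.20 ± 0.028, edgeR adjusted p = 4.08e-08), and 4 members were then higher against 55.2% of all genes. The log2 changes of Abcb1a, Abcc1 and Abcc3 over time in DMSO were -0.76, 0.05 and 0.03 and did not pass.

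Between 48 hours and 7 days of sorafenib 4 members rose (Abcb1b by 0.57 ± 0.067, Abcc4 by 0.51 ± 0.091, Abcc5 by 0.37 ± 0.097 and Abcc1 by 0.28 ± 0.098, log2 and SE) and Abcg2 fell by 0.18 ± 0.051, with 39.7% of all genes called. Without the lowered library the same 5 genes were called, and the changes of the 3 members of the lowered stretch were smaller, at 0.38 for Abcc4, 0.22 for Abcc5 and 0.14 for Abcc1. The response to sorafenib itself differed between times for 3 of 7 members, Abcb1a and Abcb1b toward higher and Abcg2 toward lower at 7 days, with 36.8% of all genes called for that difference. These comparisons share groups with those of the treatment and are not independent of them.

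Of 45 other ABC genes, 38 were tested, and 10 were higher and 14 lower in sorafenib at 48 hours, and 10 higher and 11 lower at 7 days. The median log2 fold changes were -0.25 and -0.05, and 54.6% and 56.8% of all genes were called at these times. Without the lowered library the counts were 11 higher and 16 lower at 48 hours, and 10 higher and 13 lower at 7 days. Cftr, a chloride channel of the same subfamily as the Mrp pumps, rose from 23.8 ± 4.38 normalized counts in DMSO to 266 ± 43.7 in sorafenib at 48 hours and from 27.9 ± 4.61 to 321 ± 37.7 at 7 days (SD, n = 4). Abca5, of the lipid-handling subfamily, rose by 0.97 and 1.02 on the log2 scale. Abca9, of the same subfamily, fell by 1.40 and 2.44 at the respective times. Abca4, the retinoid transporter of photoreceptors, fell at both times (log2 fold changes -0.50 and -2.26). Abcc10, which encodes Mrp7, fell by 0.80 at 48 hours, or by 0.68 without the lowered library, whose affected stretch holds it. At 7 days Abcc10 was at -0.09 and did not pass. The bile salt pump Abcb11 and the phospholipid pump Abcb4 of the canaliculus were at means of 1.41 and 0.870 normalized counts over the 16 libraries.

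Transcription factors known to act on drug transporters moved in both directions. Of 24 listed, 22 were tested, with 10 higher and 9 lower at 48 hours (median log2 fold change 0.18) and 5 higher and 9 lower at 7 days (median -0.02). Over all genes tested, 54.6% and 56.8% were called at these times. Without the lowered library, 9 were higher and 9 lower at 48 hours, and 6 higher and 9 lower at 7 days. Nr1i2, which encodes the xenobiotic receptor PXR, was at a mean of 0.112 normalized counts over the 16 libraries and Hnf4a at 0, so neither could be tested. Nr1h4, the bile acid receptor FXR, rose by 2.33 ± 0.13 at 48 hours and by 0.67 ± 0.10 at 7 days (log2, SE). Atf4, a factor of the amino acid and endoplasmic reticulum stress response, rose by 1.60 ± 0.085 at 48 hours (1.72 without the lowered library) and by 0.97 ± 0.083 at 7 days. The small Maf proteins, partners of Nrf2, were higher, with Mafk at 1.13 ± 0.060 at 48 hours and 0.69 ± 0.056 at 7 days. Maff was at 0.60 at 48 hours (0.73 without the lowered library) and at 0.82 ± 0.094 at 7 days. Nfe2l2, which encodes Nrf2 itself, rose by 0.30 at 48 hours and stood at -0.0016 at 7 days without passing. Vdr, the vitamin D receptor, fell by 1.10 at 48 hours (log2 fold change -0.91 without the lowered library) and also fell at 7 days (-0.58). Foxo3 fell at both times (log2 fold changes -0.94 and -0.73). Ahr, the aryl hydrocarbon receptor, went from 1383 ± 57.7 to 1607 ± 98.0 normalized counts at 48 hours and from 2861 ± 93.0 to 644 ± 38.0 at 7 days (SD, n = 4, DMSO to sorafenib).

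Carriers of organic anions, organic cations and other solutes outside the ABC family were for the most part scarce. Of 18 listed, 10 could be tested, and 3 were higher and 3 lower at 48 hours and 2 higher and 2 lower at 7 days. The medians were 0.07 and -0.03, beside 54.6% and 56.8% of all genes called. Without the lowered library, 3 were higher at 7 days and the other counts were as before. The hepatocyte carriers Slco1a1, Slco1a4 and Slco1b2 were at 0 in every library. Slco3a1, a carrier for prostaglandins and thyroid hormone, went from 190 ± 19.7 to 625 ± 26.0 normalized counts at 48 hours and from 289 ± 15.9 to 615 ± 18.1 at 7 days (SD, n = 4). Slco2a1, the prostaglandin transporter, rose by 1.09 ± 0.066 (log2, SE) at 48 hours and was at 0.03 at 7 days, where it did not pass.

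The profiles most like each well-expressed member were sought among the 10645 genes that averaged 100 or more normalized counts, by Pearson's r of log2 levels over 15 libraries, leaving out the lowered one. The 15 points fall into the 4 groups, so r mainly measures likeness of the group pattern and is given as a description. For Abcc4 the leading genes were Parm1 (0.999), Perp (0.998) and F2r (0.998), and for Abcc5 they were Fhl1 (0.995), Prune2 (0.995) and Cyld (0.994). Abcc1 was most like Trim16 (0.992), Desi1 (0.991) and Zfp365 (0.991). Abcg2, with its rise in DMSO over time, was most like Ran (0.987), Slc25a5 (0.986) and Upk1b (0.984). Abcb1b had the lowest leading values, with Rbm15 (0.959), Dnmt1 (0.941) and Ugcg (0.939). Likeness of pattern did not mean likeness of size: the log2 fold change at 7 days was 3.10 for Parm1 against 1.82 for Abcc4, and 4.17 for Prune2 against 0.62 for Abcc5.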

How the data were processed

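RNA was sequenced on an Illumina instrument from stranded mRNA libraries. Per the labels and methods, the authors aligned reads to GRCm39 with STAR 2.7.1a, and the submitters' processing notes name featureCounts 2.0.6 and DESeq2 1.40.2. The deposited table held raw counts per gene for 40840 genes. The annotation, strand setting and treatment of multi-mapping reads were not given in the sources used here. Counts of 16 libraries in 4 groups were fitted with edgeR 4.0.16 (R 4.3.3), TMM scaling, 1 coefficient per group and no block, for genes with at least 10 counts in total. Its quasi-likelihood test with Benjamini-Hochberg adjustment over all genes tested (20444 with all libraries) gave the adjusted p-values. Normalized counts are counts divided by the TMM library size and multiplied by its mean. Fold changes on the log2 scale (edgeR's default prior count), profile likeness on log2 CPM with a prior count of 2, and exact permutation tests on log2 (normalized count + 1) were computed here. Lengths came from GENCODE vM39. Alternatives were DESeq2 1.42.0, its size factors, total counts, other filters, a fold threshold, 8-library fits, a replicate block, an offset for the lowered stretch and leaving out each library. Lengths from canonical transcripts were added after seeing the data. Scripts were tested on simulated data.

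The members and gene lists were chosen with earlier results of these data known. Named genes were the members, the 4 genes with the largest change at each time among called genes of each list that averaged 100 or more normalized counts, and the 3 profiles most like each member at that level. Other genes named, such as Abcb4, Abcb11, Nr1i2, Nfe2l2 and Slco1a1, were chosen after their values were seen. Library totals of 16586254 to 30828427 set the precision, and intervals and floors cover counting error only. No pair of replicates agreed within sampling noise. By chi-square per gene, DMSO 7-day replicate 4 differed from its group by 41.4 to 55.0, against 1.78 to 2.79 among the others. Sorafenib 48-hour replicate 2 differed from its group by 27.0 to 30.7. In DMSO at 48 hours, replicates 1 and 4 (4.20) and replicates 2 and 3 (4.83) were alike, with 14.5 to 32.7 across. Replicates within a group were thus not homogeneous in DMSO either.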

Additional observations from a re-analysis of the deposited data

Results flagged for a closer look

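In groups of 4 libraries, a library was singled out when it lay so far from the other 3 that its gap took up nearly the whole range of the group, a rule that chance alone meets in about 1 of 20 groups. It was applied to 31 sets, each of 1 member in 1 group, so some flags arise by chance. In sorafenib for 48 hours, replicate 2 was the lowest for Abcc1 at 2255 and for Abcc4 at 2100 normalized counts and the highest for Abcb1b at 476. In the same group, Abcb1a was at 1.40 in replicate 1 and Abcc2 at 1.14 in replicate 4, each from 1 count against 0 in the other libraries. With such counts the gap is always the whole range, so the rate above does not hold for these flags. In DMSO for 7 days, Abcc5 was lowest in replicate 4 at 2488.

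The response to sorafenib at 7 days differed from that at 48 hours, by edgeR's test of the difference itself, for 3 members. The difference on the log2 scale was -0.92 for Abcg2, 0.30 for Abcb1b and 3.41 for Abcb1a. The last is a fitted value that depends on the prior count, since sorafenib at 48 hours held 1 count of Abcb1a.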

How the results depend on the processing

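Of 809 values of single members under the alternatives other than the fold threshold, 781 kept their side of the threshold, 14 lost a call and 14 gained one. None of the called values changed sign. Among the 781, 8 values that were not called changed sign. With a log2 fold change of at least 1 required as well, the number of members called was 2 at 48 hours, 1 at 7 days, 1 for the difference between responses, 0 for DMSO over time and 0 for sorafenib over time, against 3690, 4202, 1965, 2242 and 1727 of the 20444 genes tested. With only the 8 libraries compared, 3 members were called for sorafenib over time against 39.6% of all genes, since Abcc1 (adjusted p = 0.119) and Abcc5 (0.0523) were lost, and the cause was not tested. Leaving out 1 library at a time gave 4 to 6 members called at 48 hours, 4 to 5 at 7 days, 2 to 3 for the difference between responses, 3 to 4 for DMSO over time and 4 to 6 for sorafenib over time. The share of all genes called moved as well. Without sorafenib 48-hour replicate 2 it went from 54.6% to 57.0% at 48 hours and from 49.4% to 55.2% for DMSO over time. These ranges therefore do not set the members apart. For sorafenib over time, 39.7% of all genes were called with all libraries. In that comparison Abcc1 was lost without sorafenib 7-day replicates 1, 2 or 3 (edgeR adjusted p from 0.0542 to 0.0656). The level of Abcg2 relative to Abcc1 in DMSO at 48 hours, 0.720 per kilobase of exon, was 1.07 per kilobase of coding sequence, 0.565 per kilobase of canonical transcript and 0.441 with no division by length. With total counts alone, Abcb1b at 48 hours was called lower (-0.18, adjusted p = 0.0291) and the difference between responses was called for Abcc1 (0.33, adjusted p = 0.047).

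Replicate numbers were not taken as pairs: deviations of same-numbered libraries correlated at -0.051 to 0.132 over 10646 genes. With a replicate block, 4 members were called at 48 hours, 5 at 7 days and 2 for the difference between responses, against 52.1%, 53.9% and 34.2% of all genes, and Abcb1a was lost from the last (adjusted p = 0.0532); the block changed no other call of a member. Depth limits Abcb1a, Abcc2 and Abcc3, whose 15 or fewer counts per library leave wide intervals.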

Other observations

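Glutathione S-transferases make the conjugates that the Mrp pumps export. Of 24 listed, 21 were tested, and 4 were higher and 10 lower in sorafenib at 48 hours (median log2 fold change -0.23) and 6 higher and 8 lower at 7 days (median -0.15). The shares of all genes called were 54.6% and 56.8%. Without sorafenib 48-hour replicate 2, 5 were higher and 10 lower at 48 hours. Mgst1, the microsomal enzyme that also reduces lipid peroxides, went from 1418 ± 21.2 to 254 ± 14.5 normalized counts at 48 hours and from 1509 ± 33.2 to 183 ± 15.7 at 7 days (SD, n = 4). Gsta4, which acts on 4-hydroxynonenal, fell by 1.58 and 1.06 on the log2 scale at the respective times, and Gstm1 also fell at both (-0.77 and -1.02). Gsto1, of the omega class, rose by 0.91 at 48 hours, or 1.04 without that library, and by 0.97 at 7 days. Gsta3 rose by 1.92 at 48 hours and fell by 1.49 at 7 days, and the difference between these responses passed edgeR's test (-3.41, adjusted p = 1.89e-11).

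For proteins that hold ABC pumps at the membrane or carry them there, 13 symbols were listed and 11 were in the table and tested, with 4 higher and 5 lower at 48 hours and 3 higher and 5 lower at 7 days (medians -0.21 and -0.14), beside 54.6% and 56.8% of all genes called. Without sorafenib 48-hour replicate 2 the counts were 4 and 4, and 3 and 6. Cav1, which forms caveolae, rose by 1.65 and 1.21 on the log2 scale, and Msn, which links membrane proteins to actin, by 1.58 (1.71 without that library) and 1.29. Slc9a3r1, a PDZ scaffold that binds several of these pumps, fell by 0.90 at 48 hours and by 2.35 at 7 days, and its partner Ezr fell by 0.79 at 7 days. Rab11fip1, of the recycling pathway, fell at both times (log2 fold changes -0.23 and -0.57).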
